A study of Mus musculus with 9 samples.

Results

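Red pulp macrophages of the spleen take up aged red cells, break down their haem and return the iron to the blood, and 10 genes of that work are described here: Spic, Cd163, Vcam1, Treml4, Hmox1, Blvra, Blvrb, Slc11a1, Fth1 and Slc40a1. They were read from all probe sets whose platform gene symbol is exactly 1 of these names, which gave 15 of the 45037 probe sets tested, or 10 of 18193 genes. Of the 10 genes 6 had 1 probe set and 4 had more. The samples were 5 lymphomas taken from the spleens of mice with the Sca1-MALT1 transgene, and 4 healthy control spleens of wild-type mice, each on 1 Affymetrix array. The transgene puts the oncogene MALT1 under control of the Sca1 (Ly6a) promoter, which is active in blood stem and progenitor cells, and no allele or agent is named that both groups share. The tissue was frozen spleen, and the labels give neither age nor sex, nor whether each numbered sample is an animal of its own. A p-value therefore weighs a difference only against the spread of these 9 samples, and so few arrays limit the precision.

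In mouse red pulp macrophages haem induces the transcription factor SPIC by ending its repression by BACH1. Haem from engulfed red cells is opened by haem oxygenase, which releases iron, carbon monoxide and biliverdin, and biliverdin reductase turns biliverdin into bilirubin. The iron is stored in ferritin or leaves the cell through ferroportin, the only known iron exporter of mammals.

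All 15 probe sets had higher means in lymphoma, with a median log2 difference of 0.95, against -0.01 over all probe sets tested. Of these, 7 passed limma at an adjusted p under 0.05 (Benjamini-Hochberg over all probe sets) and all 7 were higher, where 0.251% of all probe sets were called higher, 0.235% lower and 0.486% in either direction. They belong to 6 genes, namely Hmox1, Spic, Slc40a1, Vcam1, Blvra and Slc11a1, and no probe set of the other 4 genes (Cd163, Blvrb, Fth1 and Treml4) passed. The 5 lymphomas lay above all 4 wild-type spleens on 13 of the 15 probe sets, where 2.39% of all probe sets did so. In bulk spleen tissue more macrophages, more RNA per macrophage and RNA of other cells cannot be told apart.

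**Figure D1:**
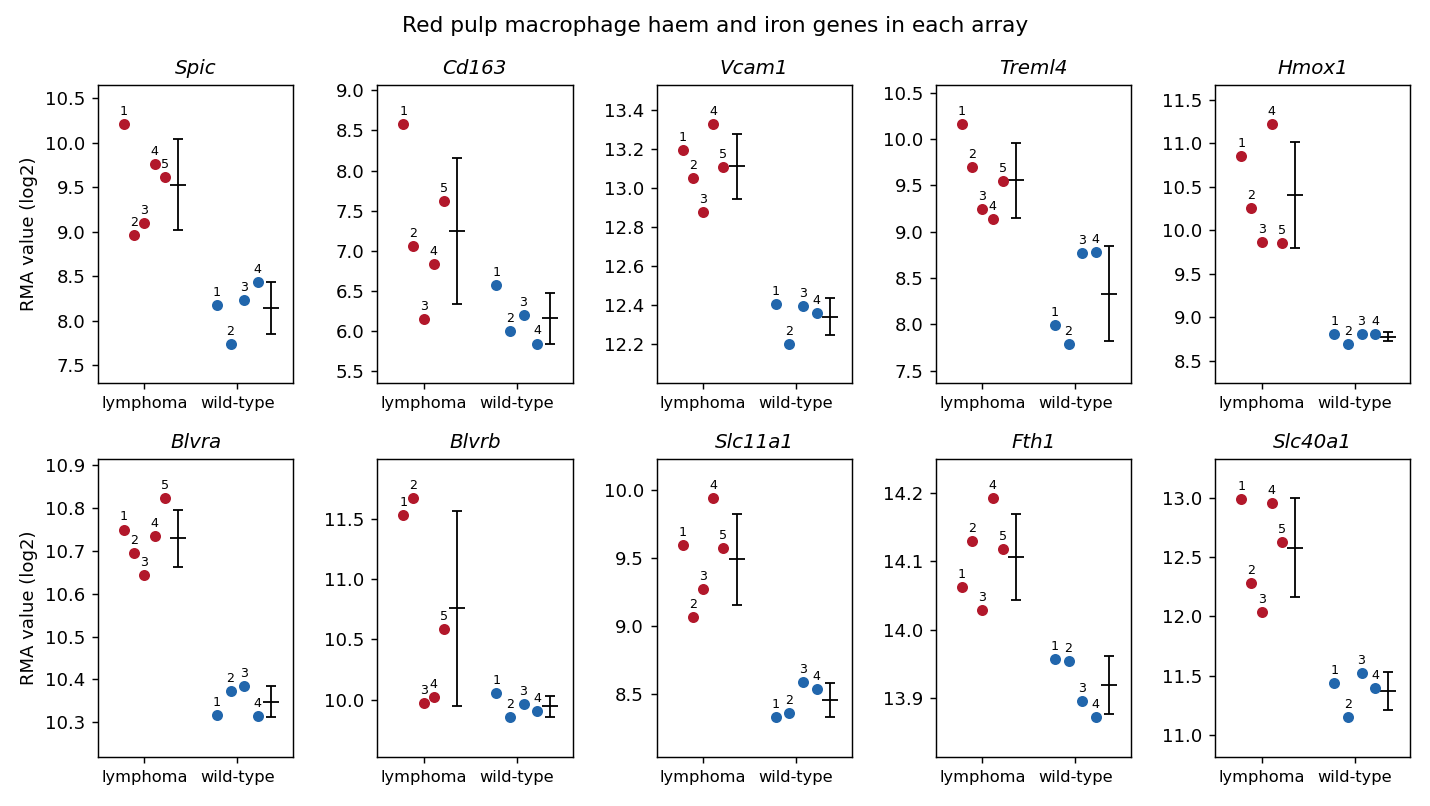
RMA values (log2, vertical axes, each gene on its own scale) of the 10 genes, each by its probe set with the highest mean, in 5 lymphomas (red, left) and 4 wild-type spleens (blue, right), with the array's number beside each point and the mean ± SD as a bar. The groups are apart for 8 genes and overlap for Cd163 and Blvrb.

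The arrays differ in what other cells they hold, which touches several values below. Their medians lay between 6.88 and 6.97. The mean log2 value of 11 erythroid genes was 11.55, 11.29, 8.46, 6.15 and 7.82 in lymphomas 1 to 5, and 8.58, 6.91, 7.03 and 7.02 in wild-type spleens 1 to 4. The mean of 12 neutrophil genes was 11.81 in lymphoma 1 and 6.93 to 8.86 in the other lymphomas, against 6.70 to 7.22 in the wild-type spleens. B-cell markers averaged 11.35 to 12.52 in the lymphomas and 12.38 to 12.52 in the wild-type spleens. The B-cell ranges overlap only through lymphoma 2, at 12.52. Lymphomas 1, 3, 4 and 5 stood at 11.35, 12.28, 12.26 and 12.06, below every wild-type spleen. How well these markers tell lymphoma from wild-type spleen was not tested. The 18S RNA control averaged 12.18 to 13.37 in the lymphomas and 12.15 to 12.37 in the wild-type spleens, and the Gapdh control's 3′ signal exceeded its 5′ signal by 1.92 to 2.80 and by 2.18 to 2.42 log2 units.

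Of the promoter sequences given for the mouse, 7 of the 10 genes had an entry, all but Hmox1, Slc40a1 and Vcam1. The called genes share a higher mean in lymphoma, but their order over the lymphomas was not the same. Shown are the sequences of the called genes with an entry: Spic, Slc11a1 and Blvra. Each is the 250 bases before the annotated start, 5′ to 3′ on the gene's own strand, from RefSeq (GRCm38.p6), at chr10:88683024-88683273 on the minus strand for Spic, chr1:74374953-74375202 on the plus strand for Slc11a1 and chr2:127070407-127070656 on the plus strand for Blvra. Capitals mark a match to TGACNNNGC, the core of the element bound by BACH1 and NRF2 with small MAF proteins, on either strand.
Spic: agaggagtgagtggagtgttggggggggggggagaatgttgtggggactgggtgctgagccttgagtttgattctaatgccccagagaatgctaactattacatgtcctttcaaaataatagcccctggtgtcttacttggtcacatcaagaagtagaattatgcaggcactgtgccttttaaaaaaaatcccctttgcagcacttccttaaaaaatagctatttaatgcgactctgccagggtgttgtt
Slc11a1: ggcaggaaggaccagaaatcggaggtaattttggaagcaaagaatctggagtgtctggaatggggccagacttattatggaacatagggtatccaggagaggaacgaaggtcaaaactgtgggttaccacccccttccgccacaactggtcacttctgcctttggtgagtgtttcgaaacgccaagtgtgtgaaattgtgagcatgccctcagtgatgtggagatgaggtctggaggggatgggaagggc
Blvra: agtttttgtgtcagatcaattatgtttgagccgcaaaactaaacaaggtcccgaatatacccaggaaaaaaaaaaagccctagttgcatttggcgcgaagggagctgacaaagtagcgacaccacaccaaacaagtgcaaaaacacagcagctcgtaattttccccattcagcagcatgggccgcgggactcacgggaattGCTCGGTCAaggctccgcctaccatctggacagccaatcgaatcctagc
The Blvra sequence holds this motif on the opposite strand at bases -49 to -41 before the start, and 1 of the 9 promoters of the 7 genes held it, where 10.2% of the 32851 promoters of the table did. The ETS purine box GAGGAAGT was in 0 of the 9 and in 2.44% of all, and the GATA motif AGATAAG in 0 of the 9 and in 2.74% of all, both strands searched. The 3 motifs do not contain each other. Only these 250 bases were searched, and Hmox1, Slc40a1 and Vcam1 could not be searched at all. Blvrb and Fth1 each gave more than 1 of the 9 promoters.

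Spic, the ETS family transcription factor that red pulp macrophages need to form, was higher in every lymphoma than in every wild-type spleen on both of its probe sets. On 1418555_x_at Spic stood at 9.82, 9.04, 9.17, 9.42 and 9.17 in lymphomas 1 to 5, and at 8.46, 8.18, 8.42 and 8.47 in wild-type spleens 1 to 4. Lymphoma 1 was the highest and the other 4 lay within 0.4 log2 units of each other. This probe set of Spic averaged 9.32 ± 0.31 (SD, n = 5) in lymphoma and 8.38 ± 0.14 (SD, n = 4) in wild-type spleen, a rise of 0.94 ± 0.15 (SE) on the log2 scale (limma adjusted p 0.0390). The other, 1449134_s_at, stands for Spic by its higher mean and had values of 10.21, 8.96, 9.09, 9.77 and 9.61 in lymphomas 1 to 5, and 8.18, 7.74, 8.23 and 8.44 in the wild-type spleens. Its difference was wider, at 1.38 ± 0.25 (SE), but its limma adjusted p was 0.0571, or 0.0479 where 1 probe set per gene was tested, at which level 0.715% of genes were called. Both identifiers end in a suffix that Affymetrix gives to probe sets that may match several transcripts.

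Cd163, the receptor that takes up haemoglobin bound to haptoglobin, did not pass and its groups overlapped. Cd163 stood at 8.58, 7.06, 6.15, 6.84 and 7.62 in lymphomas 1 to 5, and at 6.58, 6.01, 6.21 and 5.85 in wild-type spleens 1 to 4. Lymphoma 3 lay among the wild-type values and lymphoma 1 was the highest array. Every wild-type value, and those of lymphomas 3 and 4, lay below the array medians of 6.88 to 6.97. RMA compresses differences near background, and how far it did so for Cd163 was not tested. The Cd163 difference was 1.09 with a 95% interval of 0.16 to 2.02 (limma adjusted p 0.283), and 0.71 without lymphomas 1 and 2. The mean of 8 monocyte genes was 9.46 in lymphoma 1 and 7.18 to 8.22 in the other lymphomas, against 7.18 to 7.39 in wild-type spleen, and its part in the Cd163 values was not tested.

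Vcam1, an adhesion molecule of the endothelium and stroma that red pulp macrophages also carry, had the smallest spread relative to its difference among the 6 called genes. On 1415989_at Vcam1 stood at 10.002, 10.02, 9.76, 10.13 and 9.92 in the lymphomas, and at 9.02, 8.89, 9.06 and 9.09 in the wild-type spleens. On this probe set Vcam1 rose by 0.95 ± 0.09 (SE), or 1.94-fold (limma adjusted p 0.0107), and the lowest lymphoma lay 0.67 above the highest wild-type spleen. On 1448162_at, which stands for the gene, Vcam1 rose by 0.77 ± 0.10 (SE; limma adjusted p 0.0183), and the 5 lymphomas lay between 12.88 and 13.33, against 12.20 to 12.40 in wild-type spleen. The third Vcam1 probe set, 1451314_a_at, differed by 0.67 (limma adjusted p 0.0970), again with no overlap. Of 11 measured genes of endothelium and stroma, which also make Vcam1, 0 passed, while 2 were higher (Pdgfrb and Stab2) and 2 lower (Cr2 and Pecam1) with an unadjusted p under 0.05, where 6.79% and 8.09% of all genes were. Pdgfrb differed by 0.86 and Stab2 by 0.84, against -1.25 for Cr2 and -0.33 for Pecam1, or 0.96, 0.49, -0.86 and -0.19 without lymphomas 1 and 2. The list thus held genes of both directions, with 7 of 11 differences positive. Their mean lay between 9.78 and 10.15 in lymphoma and between 9.79 and 10.09 in wild-type spleen. Such a mean can stay level while its genes differ in opposite directions. The part of these cells in the Vcam1 values was not tested. Stab2 and Pecam1 were singled out after their values were seen.

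Treml4, a receptor of the TREM family found on spleen macrophages and some monocytes, was higher in every lymphoma but did not pass. Treml4 stood at 10.16, 9.69, 9.25, 9.13 and 9.55 in lymphomas 1 to 5, and at 7.99, 7.79, 8.77 and 8.78 in wild-type spleens 1 to 4. The wild-type spleens fell into a lower pair (1 and 2) and a higher pair (3 and 4), and Treml4 was the only 1 of the 15 probe sets on which wild-type spleens spread more widely than lymphomas. The Treml4 difference was 1.22, with a 95% interval of 0.63 to 1.82 (limma adjusted p 0.0937).

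Hmox1, haem oxygenase 1, which opens the haem ring, had the largest rise of the 10 genes. Hmox1 stood at 10.85, 10.26, 9.87, 11.21 and 9.85 in lymphomas 1 to 5, and at 8.81, 8.70, 8.81 and 8.81 in wild-type spleens 1 to 4. Lymphomas 4 and 1 were the highest, and even the lowest lymphoma lay 1.05 above the highest wild-type spleen. Hmox1 averaged 10.41 ± 0.61 (SD, n = 5) in lymphoma and 8.78 ± 0.05 (SD, n = 4) in wild-type spleen, a rise of 1.63 ± 0.27 (SE) or 3.09-fold (limma adjusted p 0.0413). The Hmox1 values of 3 wild-type arrays were identical in the deposited table, as was the case for at least 3 wild-type arrays in 0.554% of probe sets.

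Biliverdin reductases A and B differed in how evenly they were higher. Blvra, which makes bilirubin from the biliverdin that haem oxygenase releases, stood at 10.75, 10.69, 10.64, 10.73 and 10.82 in lymphomas 1 to 5, and at 10.32, 10.37, 10.38 and 10.32 in wild-type spleens 1 to 4. The rise of Blvra was small and even, at 0.38 ± 0.06 (SE) or 1.30-fold (limma adjusted p 0.0415). Blvrb, a flavin and biliverdin reductase that is abundant in red cells, stood at 11.53, 11.67, 9.97, 10.02 and 10.59 in lymphomas 1 to 5, and at 10.06, 9.85, 9.96 and 9.91 in wild-type spleens 1 to 4. Lymphomas 1 and 2 stood far above the rest, and lymphomas 3 and 4 lay inside the wild-type range. The Blvrb difference was 0.81 with a 95% interval of 0.02 to 1.61 (limma adjusted p 0.349), and 0.25 without lymphomas 1 and 2 (limma adjusted p 0.446). The same 2 lymphomas had the highest erythroid means, 11.55 and 11.29. With the erythroid mean as a covariate the Blvrb difference was 0.32 (limma adjusted p 0.547). Whether erythroid cells gave the Blvrb signal was not tested.

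**Figure D2:**
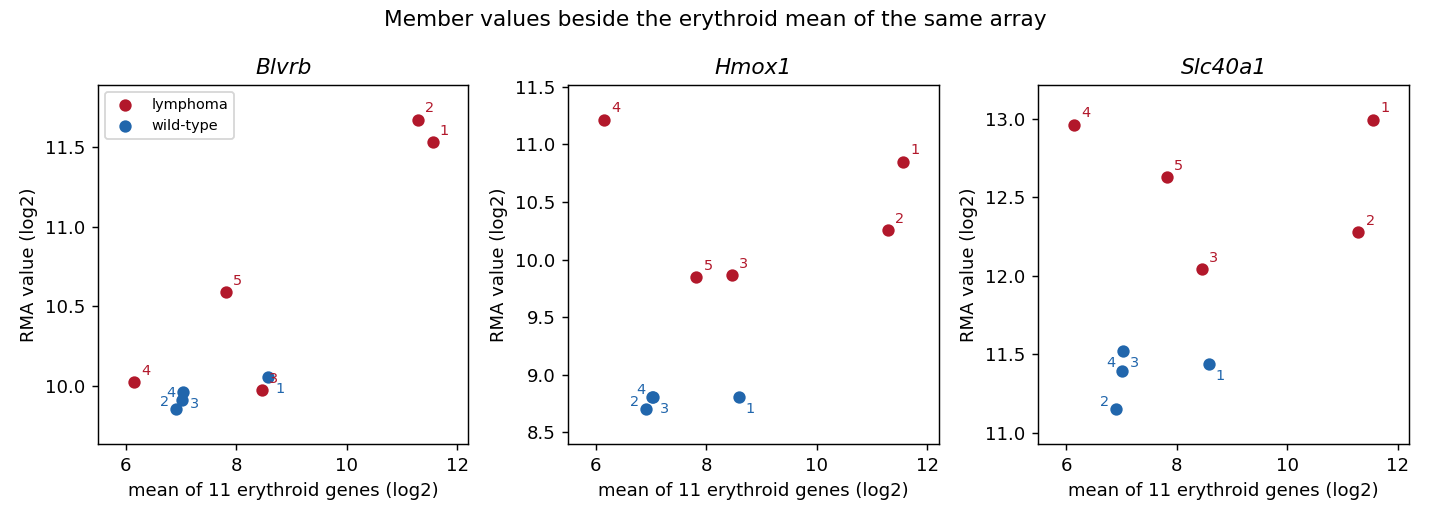
RMA values (log2, vertical axes) of Blvrb, Hmox1 and Slc40a1 against the mean log2 value of 11 erythroid genes on the same array (horizontal axes), in lymphomas (red) and wild-type spleens (blue), with array numbers. Blvrb is highest on the arrays with the highest erythroid means, lymphomas 1 and 2. Hmox1 reaches 11.21 in lymphoma 4, whose erythroid mean of 6.15 is the lowest of the 9 arrays.

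Slc11a1, also called NRAMP1, moves iron and other metals out of the phagosome of macrophages and neutrophils. Slc11a1 stood at 9.60, 9.07, 9.27, 9.94 and 9.57 in lymphomas 1 to 5, and at 8.33, 8.36, 8.59 and 8.53 in wild-type spleens 1 to 4. Lymphoma 4 was the highest and lymphoma 2 the lowest, and the groups did not overlap. The rise of Slc11a1 was 1.04 ± 0.16 (SE) or 2.05-fold (limma adjusted p 0.0340). Lymphoma 4, with the highest Slc11a1 value, had a neutrophil mean of 6.93, inside the wild-type range of 6.70 to 7.22. The part of neutrophils in the Slc11a1 values was not tested. Without lymphomas 1 and 2 the Slc11a1 difference was 1.14 (limma adjusted p 0.0117).

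Fth1, the ferritin heavy chain that oxidises iron for storage, differed little. On 1448771_a_at Fth1 stood at 14.06, 14.13, 14.03, 14.19 and 14.12 in lymphomas 1 to 5, and at 13.96, 13.95, 13.90 and 13.87 in wild-type spleens 1 to 4. The groups did not overlap, but the difference of Fth1 was 0.19 with a 95% interval of 0.04 to 0.33 (limma adjusted p 0.245). On the second probe set, 1427021_s_at, Fth1 differed by 0.30 (limma adjusted p 0.139). The highest value in the whole table was 15.42, and Fth1 lay near that top. Near-identical copies of Fth1 lie elsewhere in the genome, and whether they add to its signal was not tested. Ferritin output is largely set at translation, through an iron-responsive element of the mRNA, which an array of RNA does not read.

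Slc40a1, which encodes ferroportin, was higher in every lymphoma on both of its probe sets. On 1417061_at Slc40a1 stood at 12.99, 12.28, 12.04, 12.96 and 12.63 in lymphomas 1 to 5, and at 11.44, 11.15, 11.52 and 11.39 in wild-type spleens 1 to 4. Lymphomas 1 and 4 were the highest, as for Hmox1. The rise of Slc40a1 on this probe set was 1.21 ± 0.20 (SE) or 2.31-fold (limma adjusted p 0.0409). On 1448566_at the Slc40a1 values were 10.89, 10.03, 9.55, 11.0001 and 9.99 in the lymphomas, and 8.64, 8.26, 8.82 and 8.95 in the wild-type spleens. This difference of Slc40a1 was larger, at 1.62 ± 0.30 (SE), with a limma adjusted p of 0.0582.

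**Figure D3:**
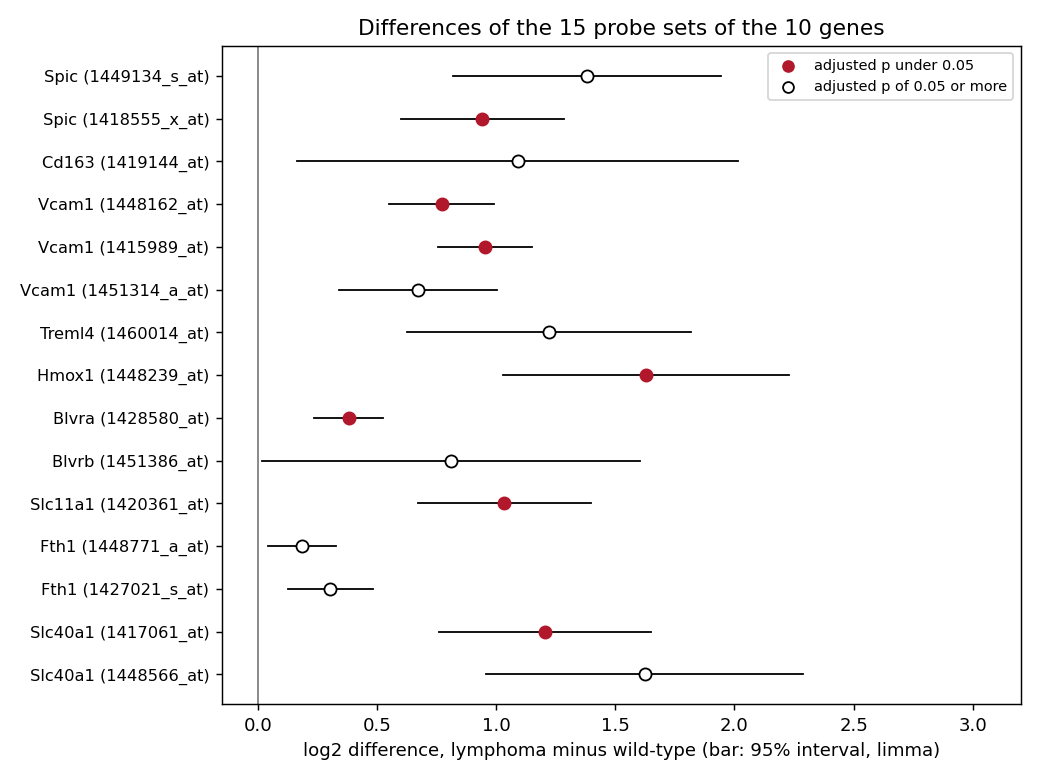
Log2 difference, lymphoma minus wild-type (horizontal axis), of the 15 probe sets of the 10 genes, with 95% intervals from limma (bars). Filled points passed at an adjusted p under 0.05 (7 probe sets), open points did not (8), and all 15 lie to the right of 0.

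The calls lie close to the threshold and change with single arrays left out. Without wild-type spleen 1, 2, 3 or 4 limma called 1, 0, 0 and 1 of the 15 probe sets. In those fits 14, 13, 14 and 13 of the 15 had an unadjusted p under 0.05, as had 4857, 4191, 4505 and 5532 of all 45037. Of all 45037 probe sets the same fits called 18, 0, 0 and 14. Without lymphoma 1, 2, 3, 4 or 5 limma called 3, 9, 9, 5 and 1 of the 15. Of all 45037 it then called 199, 530, 292, 200 and 48. Hmox1 lost its call without any 1 wild-type spleen, lymphoma 1 or lymphoma 5 (highest limma adjusted p 0.171), and its difference then ranged from 1.43 to 1.77 over the 9 arrays left out. Spic 1418555_x_at (up to 0.166), Slc40a1 1417061_at (0.173), Blvra (0.169), Slc11a1 (0.150) and Vcam1 1448162_at (0.0968) also lost theirs without any 1 wild-type spleen or lymphoma 5. Besides, Spic and Slc40a1 lost theirs without lymphoma 4, Slc40a1 and Slc11a1 without lymphoma 1, and Blvra without lymphoma 1 or 4. Vcam1 1415989_at lost its call only without wild-type spleen 2 or 3 (0.0553 and 0.0639). The direction of all 15 probe sets held with each array left out. In an exact two-sided permutation test of single probe sets, which cannot go below 0.00794, 14 of the 15 had an unadjusted p under 0.05 and 10 reached the smallest p. That test was not run on the other probe sets, so how unusual these counts are cannot be told. By limma all 15 had an unadjusted p under 0.05 and were higher, as 5.15% of all probe sets did.

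Without lymphomas 1 and 2, which carry the highest erythroid means, limma called 8 of the 15 probe sets, the 7 of the full comparison among them and also Spic 1449134_s_at (difference 1.34, limma adjusted p 0.0169). That fit called 935 of all 45037 probe sets. With the erythroid mean as a covariate limma called 3 of the 15 and 164 of all 45037. The 3 were Vcam1 1448162_at (difference 0.79, limma adjusted p 0.0311), Vcam1 1415989_at (0.96, 0.0185) and Slc11a1 (1.19, 0.0246). The differences of Hmox1 (1.67) and Slc40a1 1417061_at (1.23) were then about as large as without the covariate, with limma adjusted p-values of 0.0663 for each. Those of Blvrb (0.32), Cd163 (0.74) and Treml4 (1.03) were smaller than without it (0.81, 1.09 and 1.22). With the 18S level as a covariate limma called 0 of the 15, with 11 at an unadjusted p under 0.05, and 0 of all 45037 probe sets, with 3782 at an unadjusted p under 0.05. In that fit the differences were 1.604 for Hmox1, 1.16 for Slc40a1 1417061_at, 0.87 for Vcam1 1415989_at and 1.18 for Slc11a1, near those without the covariate, whereas Blvrb stood at 0.08 and Cd163 at 0.68.

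The order of the lymphomas was not the same for each gene. Taking each gene by its probe set with the highest mean, lymphoma 1 was the highest lymphoma for 4 genes (Spic, Cd163, Treml4 and Slc40a1) and lymphoma 4 for another 4 (Hmox1, Vcam1, Slc11a1 and Fth1), whereas lymphoma 3 was the lowest for 6. The mean of the 10 genes lay 1.41, 0.91, 0.54, 1.03 and 0.97 above the wild-type mean in lymphomas 1 to 5. Lymphomas 1, 2 and 5 exceeded every wild-type spleen for all 10 genes, lymphoma 4 for 9 and lymphoma 3 for 8. The same count per array over all genes was not made, so how unusual these counts are cannot be told. On lymphoma 4, the highest lymphoma for Hmox1, Vcam1 and Slc11a1, the monocyte and neutrophil means (7.18 and 6.93) lay inside the wild-type ranges. Its erythroid mean lay below the wild-type range. This array was singled out after its values were seen, and the part of these cells in the member values was not tested.

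**Figure D4:**
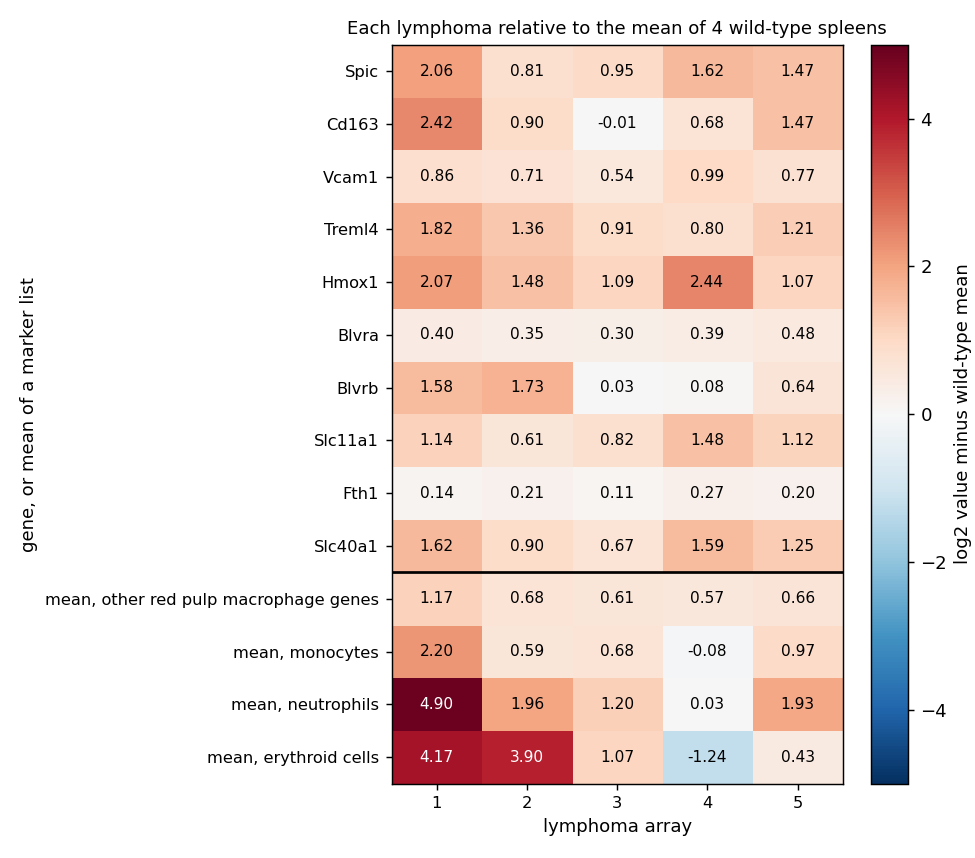
Log2 value of each lymphoma minus the mean of the 4 wild-type spleens (colour and printed number) for the 10 genes, each by its probe set with the highest mean, and for the means of 4 marker lists (below the line). Lymphoma 1 stands highest for Cd163 (2.42) and the neutrophil mean, and lymphoma 4 for Hmox1 (2.44). The erythroid mean of lymphoma 4 is below wild-type.

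Other genes of red pulp and related macrophages were higher in the lymphomas as well. Of 12 measured genes of that list (beyond the 10 members) 4 rose, 0 fell and 8 did not pass, where 0.346% of genes were called higher, 0.258% lower and 0.605% in either direction, and the list's median difference was 0.69, against 0.001 over 18193 genes. The 4 were Pparg, a nuclear receptor that macrophages use in lipid handling (1.12, limma adjusted p 0.0353), Cd68, a lysosomal protein (0.996, 0.0235), Axl, a receptor for dying cells (0.78, 0.0390), and Sirpa, which reads the CD47 signal of red cells (0.67, 0.0409). Cd68 stood at 10.18, 10.23, 10.27, 10.83 and 10.49 in lymphomas 1 to 5, and at 9.53, 9.31, 9.33 and 9.45 in wild-type spleens 1 to 4. The mean of the 12 genes lay between 9.91 and 10.50 in lymphoma and between 9.22 and 9.41 in wild-type spleen. The list thus lay higher in every lymphoma, as the mean of the members did, but the order of the lymphomas differed. Lymphoma 4 was the lowest lymphoma for the list (9.91), and lymphoma 3 stood at 9.95. For the mean of the 10 members lymphoma 3 was the lowest (10.32), and lymphoma 4 stood at 10.81.

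Set against the mean of these 12 genes on the same array, the members changed unequally. Relative to it Hmox1 was still higher in every lymphoma, at -0.15 to 1.31 against -0.60 to -0.52 in wild-type spleen. Blvra was lower relative to it, at 0.25 to 0.83 in lymphoma and 0.91 to 1.16 in wild-type spleen, as was Fth1, at 3.56 to 4.28 in lymphoma and 4.47 to 4.74 in wild-type spleen. The other 7 genes overlapped between the groups on this relative scale, Vcam1 with a mean difference of 0.035. The share of all genes that overlap on this scale was not counted.

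Marginal zone and metallophilic macrophages, which line the edge of the white pulp, had 1 gene that fell and 5 that did not pass among 6 measured, with a median difference of -0.53, or -0.29 without lymphomas 1 and 2. The gene that fell was Marco, a scavenger receptor (-1.64, limma adjusted p 0.0148), with values of 10.04, 9.89, 10.22, 10.76 and 9.96 in lymphomas 1 to 5, against 11.61, 11.66, 11.90 and 12.10 in wild-type spleens 1 to 4. Msr1, another scavenger receptor, went the other way, with a difference of 1.31 and no overlap between the groups (limma adjusted p 0.108), or 1.14 without lymphomas 1 and 2, and was singled out after its values were seen.

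Among further genes of haem and haemoglobin handling limma called 0 of 13, and at an unadjusted p under 0.05 it had 5 higher and 0 lower, where 6.79% of genes were higher and 8.09% lower. Their median difference was 0.90, and 6 of the 13 lay higher in every lymphoma than in every wild-type spleen, where 3.29% of genes did so. Without lymphomas 1 and 2 the median was 0.20, and lymphoma 1 had a list mean of 10.25 against 8.29 to 8.62 in the other lymphomas. Hp, the haptoglobin that binds free haemoglobin for CD163, had the largest difference, 2.75 (limma adjusted p 0.261). Hp stood at 13.27, 8.96, 8.13, 7.604 and 10.38 in lymphomas 1 to 5, and at 7.18, 6.70, 6.87 and 6.93 in wild-type spleens 1 to 4. Lymphoma 1, with the highest neutrophil mean, was far above the rest, and without lymphomas 1 and 2 the Hp difference was 1.78. Alb, Hpx and Ambp of this list also spread widely, with lymphoma SDs of 2.68, 2.16 and 1.44, against 0.10, 0.17 and 0.13 in wild-type spleen. Their differences were 1.83, 1.04 and 0.52, or 0.62, 0.14 and -0.14 without lymphomas 1 and 2. They were singled out after their values were seen, and which cells gave these signals was not tested. Cd5l, a secreted macrophage protein reported to clear haemoglobin and haem as well, stood at 11.74, 11.83, 10.34, 9.99 and 9.93 in lymphomas 1 to 5, and at 9.19, 7.65, 8.01 and 7.89 in wild-type spleens 1 to 4. Cd5l differed by 2.58 (limma adjusted p 0.0612) and by 1.90 without lymphomas 1 and 2. Slc48a1, the transporter that passes haem out of the phagosome towards haem oxygenase, differed by 0.90 (limma adjusted p 0.0736), and was singled out after its values were seen.

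Of the genes of iron uptake, storage and export beyond the members, limma called 0 of 24. Their median difference was 0.09, or 0.02 without lymphomas 1 and 2, and 2 were higher and 3 lower with an unadjusted p under 0.05, shares near the 6.79% and 8.09% of all genes. Cp, the ferroxidase ceruloplasmin that loads exported iron onto transferrin, had the largest difference of the list. Cp stood at 11.64, 10.74, 11.84, 11.96 and 11.43 in lymphomas 1 to 5, and at 10.43, 10.44, 10.43 and 10.46 in wild-type spleens 1 to 4, a difference of 1.08 (limma adjusted p 0.0718). All 5 lymphomas lay above the wild-type spleens for Cp, lymphoma 2 by the least. Slc39a8, a zinc and iron importer, differed by 0.72 (limma adjusted p 0.554), but by -0.05 without lymphomas 1 and 2.

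BACH1, which represses Hmox1, NRF2, which activates it, and their partners and targets gave no call. Limma called 0 of the 16 measured genes of that list, with a median difference of 0.15, or 0.03 without lymphomas 1 and 2 (at an unadjusted p under 0.05, 4 were higher and 0 lower). Gclm, a subunit of the enzyme that starts glutathione synthesis, differed by 1.18 (limma adjusted p 0.270), with values of 11.50, 10.95, 9.34, 9.41 and 9.62 in lymphomas 1 to 5, against 9.19, 8.80, 8.96 and 8.98 in wild-type spleens 1 to 4. Lymphomas 1 and 2 made most of that difference, which was 0.48 without them. Nqo1, a quinone reductase, differed by 0.51 (limma adjusted p 0.355), or by 0.21 without lymphomas 1 and 2. Over the 3 lists together 39 of 53 genes had a positive difference and 0 passed, while 11 were higher and 3 lower with an unadjusted p under 0.05. Without lymphomas 1 and 2 it called 3.

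**Figure D5:**
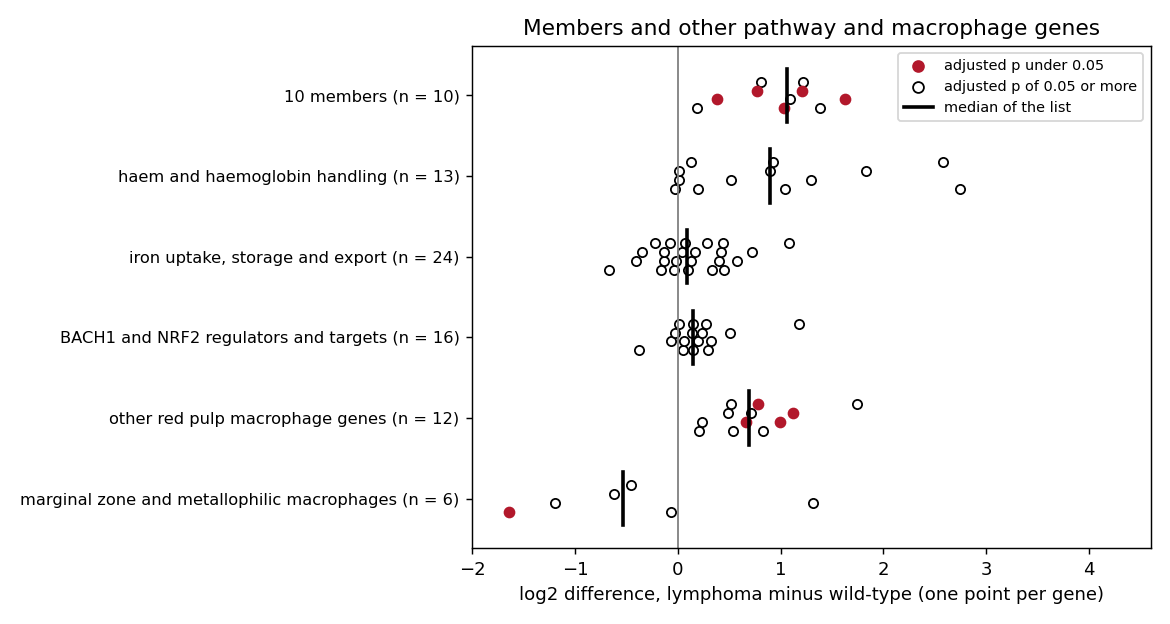
Log2 difference, lymphoma minus wild-type (horizontal axis), of each measured gene (points) in the 10 members, 3 other pathway lists and 2 macrophage lists, with the list's median (vertical line). Filled points passed limma at an adjusted p under 0.05: 5 members, 4 other red pulp macrophage genes and Marco on the lower side.

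The genes whose profile over the 9 arrays was most like those of Hmox1, Spic and Slc40a1 were found by the root mean square difference of log2 values, each gene centred on its own mean. For Hmox1 they were Vgll3 (0.22), Fcgr3 (0.31) and Slc40a1 (0.33), for Spic E230029C05Rik (0.19), Slc40a1 (0.20) and Lgals3 (0.25), and for Slc40a1 Lgals3 (0.18), Gdpd1 (0.19) and E230029C05Rik (0.19). Slc40a1 was thus among the 3 nearest genes to both Hmox1 and Spic. The measure covers both groups, so genes with a like difference between lymphoma and wild-type lie near each other by it. Whether they vary together within a group was not tested. Fcgr3 encodes a receptor for IgG, and Lgals3 encodes galectin 3, a lectin abundant in macrophages.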

How the data were processed

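RNA of 9 frozen spleen samples was hybridised to 1-colour Affymetrix mouse arrays, and the deposited table holds log2 values that the authors made with the RMA method, per the submitters' processing notes. Which version was used is not stated in those notes. The method corrects background, normalizes between arrays and summarises probes, and it compresses differences near background. Of 45101 probe sets 64 controls were left out.

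Names came from the platform annotation: 34958 probe sets had 1 symbol, 932 several and 9211 none. Groups came from the sample titles. The groups were set against each other by limma 3.58.1, run under R 4.3.3 (lmFit, eBayes, two-sided, no covariate, Benjamini-Hochberg over 45037 probe sets, threshold 0.05). List genes stand by their probe set with the highest mean, and some listed genes were not analysed here. In lists of other genes, up to 4 called genes or else the 2 with the largest difference are named. The members, lists, tests and alternatives were chosen with earlier results of these data known. Same-numbered samples of the groups did not deviate together, so numbers were not treated as pairs. As alternatives a dim-probe filter was tried, and 2 normalizations, 2 variance priors, 2 kinds of weights, the number as a block, 3 covariates, other sets of probe sets and leaving out arrays. Figures used matplotlib 3.10.9 in Python 3.11.15.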

Additional observations from a re-analysis of the deposited data

Results flagged for a closer look

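Among 98 groups of arrays checked by Dixon's ratio, the gap of an end value to its neighbour over the group's range, 8 held an array that stood apart, where chance gives about 1 in 20. For Hmox1 wild-type spleen 2 stood at 8.70 and the other wild-type spleens at 8.81 (ratio 1), a ratio that follows from the other 3 values being identical, whatever the gap, so it says nothing of how far that array stands apart. For Vcam1 1451314_a_at lymphoma 4 stood at 9.68, above 8.94 to 9.14 in the other lymphomas (ratio 0.729). Lymphoma 1 stood apart for the mean of the haem and haemoglobin handling genes, at 10.25 against 8.29 to 8.62 in the other lymphomas (ratio 0.830), for the mean of the other red pulp macrophage genes, at 10.50 against 9.91 to 10.01 (ratio 0.823), and for Cr2, a complement receptor of B cells and follicular dendritic cells, at 10.73 against 12.06 to 12.44 (ratio 0.779). Wild-type spleen 1 stood apart for the erythroid mean, at 8.58 against 6.91 to 7.03 elsewhere in its group (ratio 0.927), and for the red cell membrane genes Rhag, at 7.07 against 4.03 to 4.48 (ratio 0.851), and Kel, at 7.42 against 5.63 to 5.86 (ratio 0.867).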

How the results depend on the processing

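No alternative turned the direction of any of the 15 member probe sets. Limma called 7 of them, 11 with array weights, 3 with the erythroid mean as a covariate, 0 with the 18S level (11 at an unadjusted p under 0.05) and 0 with the replicate number as a block (13 at an unadjusted p under 0.05). With each array left out in turn it called 0 to 9. Of all 45037 probe sets limma called 219, 821 with array weights, 481 with 1 weight per group, 809 with the Gapdh ratio, 0 with the 18S level (3782 at an unadjusted p under 0.05), 935 without lymphomas 1 and 2, 130 with 1 probe set per gene, where fewer were tested, and 5 with the replicate block. With the replicate block 5223 of them had an unadjusted p under 0.05. With each array left out limma called 0 to 530. Of the 53 genes of the 3 other haem and iron lists it called 0 (14 at an unadjusted p under 0.05), 1 with the dim filter, 3 with array weights, 3 with 1 weight per group, 5 with the Gapdh ratio, 2 with the erythroid mean and 3 without lymphomas 1 and 2, and 0 to 1 with each array left out. The other alternatives kept these 3 counts within 1.5 times. The cause of these changes was not tested. Same-numbered samples share only a number: their deviations correlated at 0.10, -0.19, 0.15 and -0.04 for numbers 1 to 4.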

Other observations

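In the lists of other cell types limma called 0 genes of monocytes, neutrophils, erythroid cells, B cells and T cells. Neutrophil genes had the largest median difference of these lists, 2.54 (1.23 without lymphomas 1 and 2), and 7 of 12 were higher at an unadjusted p under 0.05, with S100a9 at 3.41 (2.23 without lymphomas 1 and 2) and Lcn2 at 3.15 (1.59 without them). Of 8 monocyte genes 3 were higher (unadjusted p under 0.05) and 1 lower, with Chil3, among the 3, at 3.27 (1.84 without lymphomas 1 and 2). F13a1, which was not among them, stood at 1.34 (0.64 without them). Of 11 erythroid genes 0 reached an unadjusted p under 0.05 although the median difference was 1.92 (0.19 without lymphomas 1 and 2), and Rhag stood at 2.36 and Kel at 2.14, or 0.31 and 0.30 without lymphomas 1 and 2. In the endothelium and stroma list Pdgfrb stood at 0.86 and Cr2 at -1.25. All 7 B-cell and all 7 T-cell genes had negative differences, with 2 and 1 at an unadjusted p under 0.05, Cd22 at -0.52, Blk at -0.54, Cd8a at -0.9999 and Cd3d at -0.75. Without lymphomas 1 and 2 the 7 B-cell genes were still negative, with Cd22 at -0.25 and Blk at -0.43, but 5 of the 7 T-cell genes were positive, with Cd3d at -0.09 and Cd8a at -0.48.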
